A study of Mus musculus with 6 samples.

Results

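The NK and innate lymphoid lineage genes described here are 10 genes chosen by name: Nfil3, Zbtb16, Tbx21, Eomes, Klrd1, Il2rb, Il18r1, Gzma, Ccl5 and Xcl1. Each was read from 1 probe set, and all 10 were present among the 22180 genes that had a probe set annotated with that gene alone. They were measured in Ly6D-negative common lymphoid progenitors (CLPs), early bone marrow cells sorted by flow cytometry. Control mice were OcnCre-;iDTR+/- and mutant mice were OcnCre+;iDTR+/-, with 3 samples and 3 arrays in each group. In the mutants Cre is driven by the osteocalcin (Ocn) promoter and switches on a diphtheria toxin receptor (iDTR), so that toxin deletes osteocalcin-expressing bone cells, and the comparison asks how the progenitors' transcripts differ after that loss. Both groups carried iDTR, were 6 to 8 weeks old and received toxin daily for 4 weeks, so the groups share the toxin and differ in Cre. The labels do not say whether a sample was 1 mouse or a pool, and p-values therefore reflect no more than the spread among these samples, which may be technical. The number of arrays limits the precision.

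Natural killer (NK) cells and the other innate lymphoid cells (ILCs) arise from CLPs without rearranging an antigen receptor. Nfil3 and Zbtb16 (PLZF) act early in this branch, the T-box factors encoded by Tbx21 (T-bet) and Eomes direct NK maturation, and maturing cells gain the receptors for IL-15 and IL-18, cytotoxic granules and chemokines. The same genes are also used by T cells, and several of them by myeloid cells, so a transcript in a sorted pool does not name the cell that made it. In such a pool fewer cells of a type and less RNA per cell cannot be told apart.

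All CLP markers that could be measured (7 of 7, among them Il7r, Flt3, Kit and Dntt) were above the level filter, the 40th percentile of genes at 4.84 on the log2 scale of the deposited values. The sample labels give the tissue as stromal cells although the cell type is given as CLP. Markers of other cells were also above the filter: all 10 for neutrophils and monocytes and all 6 for basophils and mast cells, with the basophil protease gene Mcpt8 at 8.89 to 10.93. Mutant replicate 2 stood apart, correlating at 0.935 to 0.954 with the other arrays across all probe sets, while the other 5 correlated at 0.973 to 0.989 with each other. Several results are given both with and without it.

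Of the 10 genes, 9 had a lower mean in mutant than in control progenitors, with a median difference of −0.23 (log2), and without mutant replicate 2 the count was 8 and the median −0.17. Among all 22180 genes 44.6% had a lower mutant mean, and the median difference was 0.03. Genes above the filter leaned the other way, with 7655 of 13308 lower and a median of −0.04. The 8 of the 10 genes above the filter were all lower. The lower side was led by the chemokine gene Ccl5, followed by the NK receptor gene Klrd1 and the chemokine gene Xcl1, while Nfil3, Tbx21 and Eomes differed least. Without mutant replicate 2 Ccl5 still led, followed by Il2rb (−0.37) and Zbtb16 (−0.33). With all 6 arrays none of the differences passed an adjusted p of 0.05 in limma. Of the 13308 genes above the filter, over which p was adjusted, 0 passed (0%). Of the 8 tested genes 1, Ccl5, had an unadjusted p under 0.05, against 8.03% of all tested genes (6.02% lower in mutants). Leaving out mutant replicate 2 made that count 0, against 1011 of all 13308 tested genes. Leaving out mutant replicate 1 made it 3, against 2923 of all tested genes, which with all arrays gave 1068. In none of the 10 were the groups free of overlap, against 14.6% of all genes.

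**Figure D1:**
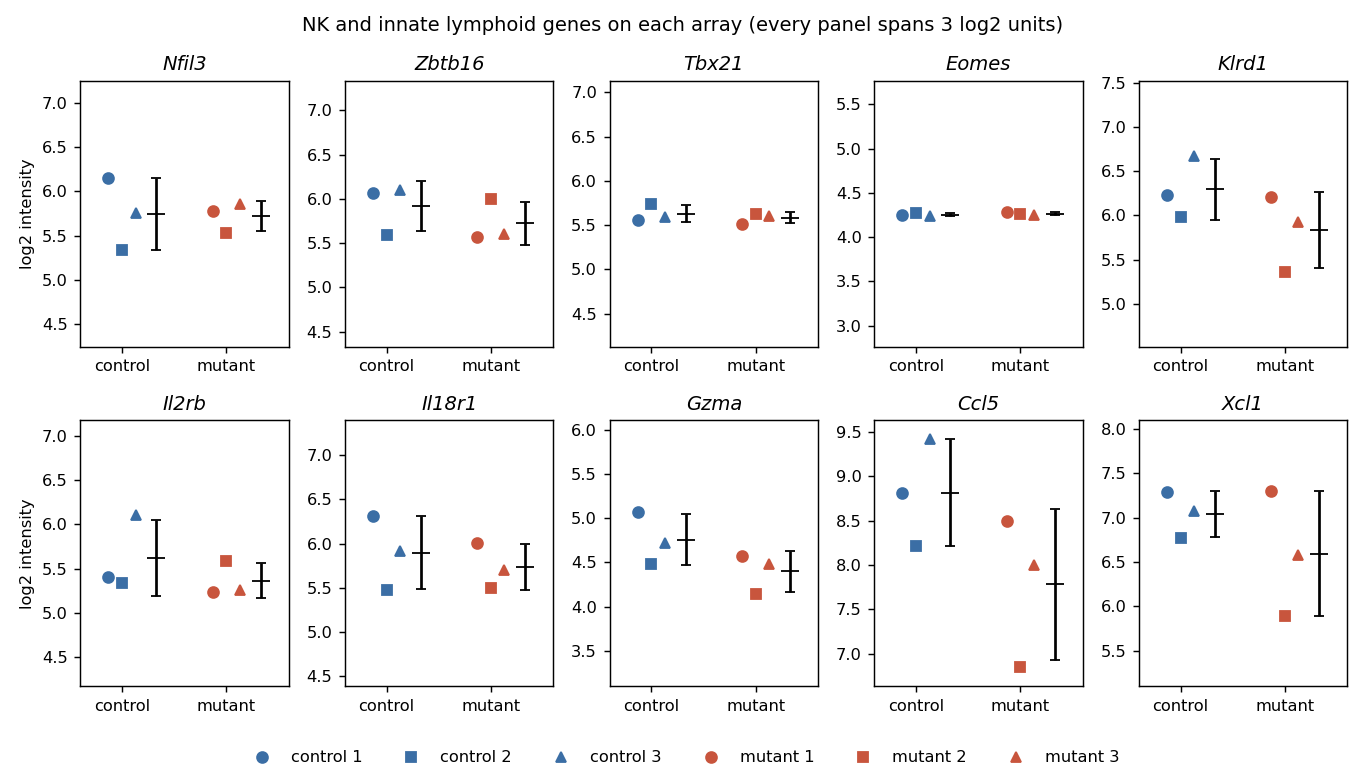
Log2 intensity of the 10 genes on each array, by group, with the mean and SD beside the points (n = 3 per group); every panel spans the same 3 log2 units at its own level. Ccl5 and Xcl1 have their lowest value in mutant replicate 2 (6.84 and 5.90), and Eomes and Tbx21 hardly vary between arrays.

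Of the early regulators of the branch, Nfil3 differed less between groups than Zbtb16. Nfil3, a basic leucine zipper factor needed for NK and ILC precursors, read 6.15, 5.34 and 5.76 in replicates 1, 2 and 3 of the controls and 5.78, 5.53 and 5.85 in the same order in the mutants. Every mutant value lay inside the control range, which was 0.82 wide. The difference was −0.03 ± 0.21 (SE), with a 95% interval of −0.51 to 0.45 (limma, adjusted p = 0.961). Zbtb16, the zinc finger factor that marks the precursor of helper ILCs, was at 6.06, 5.59 and 6.10 in controls and at 5.56, 6.00 and 5.60 in mutants. Control replicate 2 was the only low control, and mutant replicate 2 was the only high mutant, close to the higher controls. The difference was −0.20 ± 0.18 (SE; interval −0.62 to 0.23; adjusted p = 0.691). Without mutant replicate 2 it was −0.33 ± 0.17 (adjusted p = 0.678 in limma).

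The T-box factor genes varied least. Tbx21 was at 5.56, 5.74 and 5.59 in controls and at 5.51, 5.63 and 5.61 in mutants, and the groups overlapped, with control replicate 2 above every mutant and mutant replicate 1 below every control. Its difference was −0.05 ± 0.11 (SE), and the interval of −0.31 to 0.22 was the narrowest of the 8 tested (adjusted p = 0.884 in limma). Eomes was at 4.25, 4.27 and 4.24 in controls and at 4.28, 4.26 and 4.25 in mutants, a spread of 0.04 over all arrays. It was below the filter and was not tested. RMA values carry no detection call, so these values cannot be separated from the array's background.

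Among the receptors, Klrd1 differed most with all 6 arrays. It encodes CD94, the partner of the NKG2 chains in receptors that recognise a non-classical MHC molecule. Klrd1 was at 6.23, 5.99 and 6.67 in controls and at 6.21, 5.37 and 5.92 in mutants. Mutant replicates 2 and 3 lay below every control, and mutant replicate 1 lay between controls. The difference was −0.46 ± 0.25 (SE; interval −1.04 to 0.11; adjusted p = 0.596 in limma), and without mutant replicate 2 it was −0.23 ± 0.20.

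Il2rb encodes the β chain shared by the IL-2 and IL-15 receptors, through which IL-15 keeps NK cells alive. It was at 5.41, 5.34 and 6.11 in controls and at 5.24, 5.59 and 5.25 in mutants. Control replicate 3 was the high array, and the other 5 lay within 5.24 to 5.59. The difference of −0.26 ± 0.22 (SE; interval −0.76 to 0.25; adjusted p = 0.664 in limma) was −0.01 ± 0.16 without control replicate 3. Without mutant replicate 2 it was −0.37 ± 0.22, larger than that of Klrd1. Il18r1, the binding chain of the IL-18 receptor, was at 6.31, 5.48 and 5.91 in controls and at 6.01, 5.50 and 5.70 in mutants. All mutant values fell inside the control range, and the difference was −0.16 ± 0.23 (SE; interval −0.68 to 0.36; adjusted p = 0.783).

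**Figure D2:**
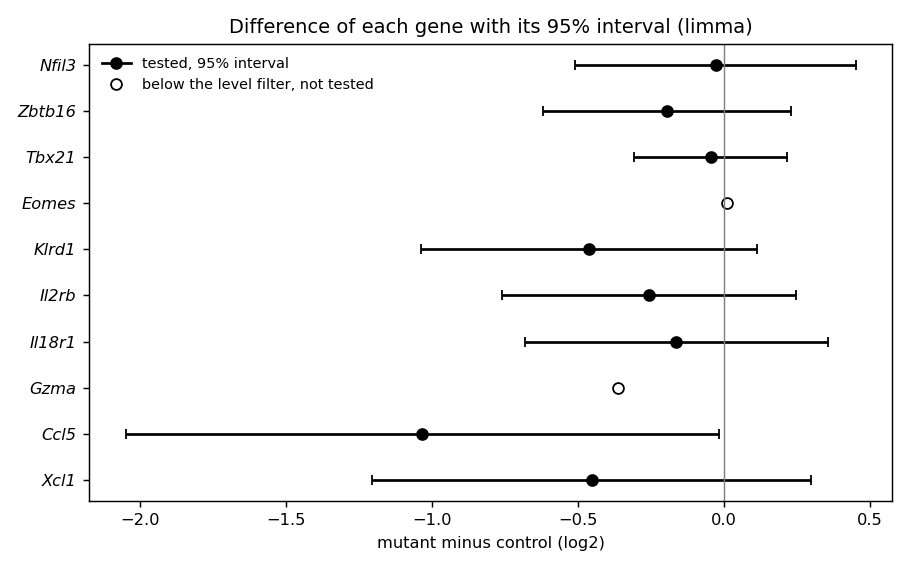
Difference of mutant and control means (log2) for each of the 10 genes, with limma's 95% interval for the 8 tested genes; open circles are the 2 genes below the level filter. The interval of Ccl5 runs from −2.05 to −0.02, and the other 7 intervals include 0.

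Of all 10 genes the effector gene Ccl5 had the largest difference. Ccl5 (RANTES), a chemokine that draws T cells, NK cells and monocytes, was at 8.81, 8.22 and 9.42 in controls and at 8.50, 6.84 and 8.01 in mutants. Mutant replicates 2 and 3 were below every control, while mutant replicate 1 exceeded control replicate 2. The control mean was 8.82 ± 0.60 and the mutant mean 7.78 ± 0.85 (SD, n = 3 arrays per group). The difference between them, −1.03 ± 0.44 (SE), is 2.05-fold. Only 14 of the 13308 tested genes had a more negative difference, yet the unadjusted p was 0.0472 and the adjusted p was 0.594 in limma. Without mutant replicate 2 the Ccl5 difference was −0.56 ± 0.31 (adjusted p = 0.691), and without mutant replicate 1 it was −1.39 ± 0.43 (adjusted p = 0.156).

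The level of Ccl5 places it where mutant replicates 2 and 3 read low in general. In the highest 10% of genes by mean level, which hold Ccl5, the median deviation from the control mean was −0.41 in mutant replicate 2 and −0.19 in mutant replicate 3, and −0.0018 in mutant replicate 1. Ccl5 itself deviated by −1.97, −0.81 and −0.31 on these arrays. In mutant replicate 2, 0.812% of those 2218 genes deviated further down. With brightness trends between arrays removed by cyclic loess, the difference of Ccl5 was −0.86 ± 0.38 (adjusted p = 0.724).

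Xcl1 encodes lymphotactin, a chemokine made by NK and T cells that attracts cross-presenting dendritic cells through the receptor XCR1. Xcl1 was at 7.29, 6.77 and 7.07 in controls and at 7.30, 5.90 and 6.58 in mutants. Mutant replicate 1 had the highest value of all arrays and mutant replicates 2 and 3 the lowest. The difference was −0.45 ± 0.33 (SE; interval −1.20 to 0.30; adjusted p = 0.627 in limma), and it was −0.10 ± 0.23 without mutant replicate 2. Gzma, the gene of the granule protease granzyme A, was at 5.07, 4.49 and 4.72 in controls and at 4.57, 4.14 and 4.48 in mutants. Its mutants tended to be low, with mutant replicate 1 above control replicate 2. Gzma was below the filter, so its difference of −0.36 was not tested. Without mutant replicate 2 that difference was −0.23.

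The promoters of Xcl1 and Gzma are shown because both genes had their lowest value in mutant replicate 2 and both serve the effector functions that T-box factors direct in NK cells. RefSeq promoter windows (build GRCm38.p6) matched 6 of the 10 genes, those of Nfil3, Tbx21, Eomes, Il18r1, Gzma and Xcl1. The sequences are the 250 bases before the transcription start, 5′ to 3′ on the gene's strand, which is the minus strand for both, at chr1:164935523-164935772 for Xcl1 and chr13:113100982-113101231 for Gzma. Capitals mark matches to a T-box core (CACACC), an ETS core (GGAAGT) or a TATA box (TATAAA), searched on both strands.
Xcl1: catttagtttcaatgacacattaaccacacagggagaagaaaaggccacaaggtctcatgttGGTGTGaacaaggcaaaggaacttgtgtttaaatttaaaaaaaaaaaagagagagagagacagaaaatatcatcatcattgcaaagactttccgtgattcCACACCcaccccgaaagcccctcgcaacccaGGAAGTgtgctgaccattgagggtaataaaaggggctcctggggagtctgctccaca
Gzma: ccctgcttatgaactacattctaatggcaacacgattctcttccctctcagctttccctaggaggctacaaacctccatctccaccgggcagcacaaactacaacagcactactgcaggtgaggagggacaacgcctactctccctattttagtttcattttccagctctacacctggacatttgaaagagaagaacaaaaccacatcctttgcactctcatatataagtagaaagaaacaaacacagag
The Xcl1 window holds 2 matches to the T-box core, beginning 188 and 88 bases before the start, and 1 to the ETS core at 57 bases, and no 2 of them overlap. The T-box core occurs in 16.3% of the 32851 windows of this length in the table, the ETS core in 19.7% and the TATA box in 12.4%. The Gzma window holds none of these exact words. Variants of them were not searched, so the stretch tatataag near the end of the Gzma window was not counted, and a TATA box of another spelling is not excluded. A match describes the sequence and is not a measured binding site.

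Across the 6 arrays Klrd1 and Ccl5 ran in the same order, from control replicate 3 down to mutant replicate 2. Among the 13308 tested genes the 5 whose profile was most like that of Ccl5, by Pearson's r over 6 arrays, were Map3k15 (0.993), Klrd1 (0.993), Ccdc117 (0.992), Mettl16 (0.989) and Ahsa2 (0.988). Leaving out control replicate 3 and mutant replicate 2, the arrays farthest from the median of Ccl5, gave 0.998, 0.945, 0.957, 0.951 and 0.970 over the 4 that remained. These genes were picked as the highest of many, all arrays enter every value, and so r is a description with no test. For Nfil3 the same rule gave Slc7a1 (0.993), Top1mt (0.988), Cited4 (0.975), Nqo2 (0.968) and Hemgn (0.964), all of which had their highest value in control replicate 1 and their lowest in control replicate 2. For Zbtb16 it gave 1700120B22Rik (0.993), Gata6os (0.978), D030028A08Rik (0.961), Lat2 (0.959) and Pla2g6 (0.952). No other of the 10 genes was among the 5 nearest to Nfil3 or Zbtb16.

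**Figure D3:**
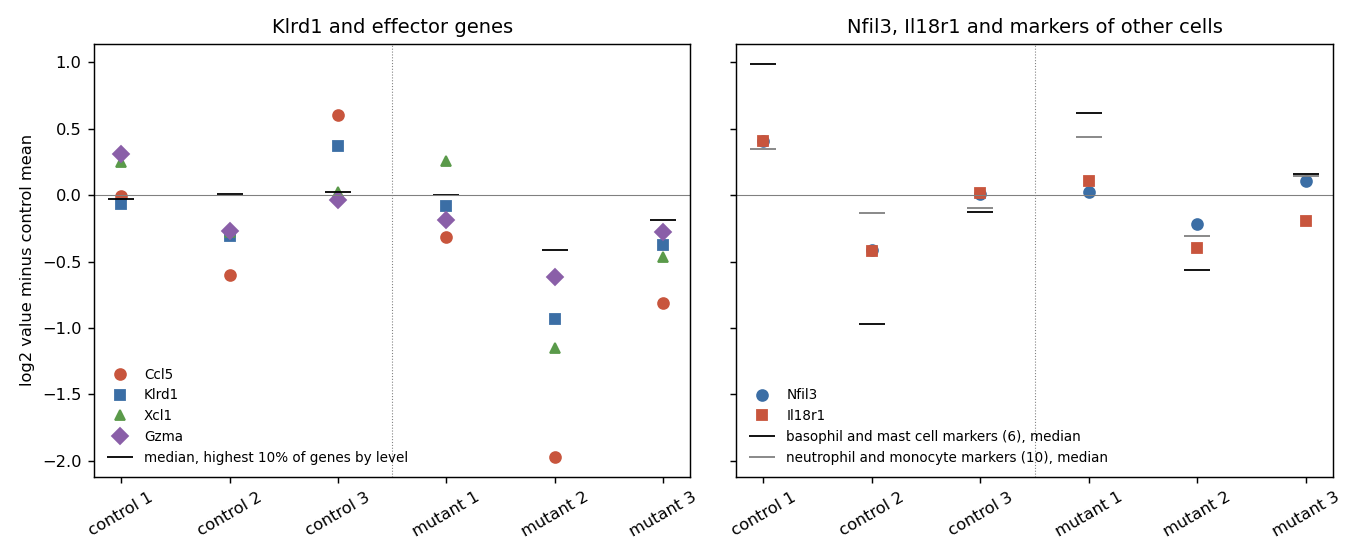
Log2 value minus the control mean on each array, left for Klrd1, Ccl5, Xcl1 and Gzma with the median of the highest 10% of genes by level (bars), right for Nfil3 and Il18r1 with the median deviation of the basophil and mast cell and of the neutrophil and monocyte markers (bars). The 4 genes on the left are lowest in mutant replicate 2, and Nfil3 and Il18r1 are highest in control replicate 1 and lowest in control replicate 2.

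Although cells were sorted as low for lineage markers, markers of other cells varied between arrays together with some of these genes. The basophil and mast cell markers had a median deviation from the control mean of 0.99, −0.97 and −0.12 in control replicates 1, 2 and 3 and of 0.62, −0.56 and 0.16 in the mutants. Nfil3 deviated by 0.40, −0.41 and 0.01 in those controls and by 0.03, −0.22 and 0.11 in the mutants, and Il18r1 by 0.41, −0.42 and 0.02 and by 0.11, −0.40 and −0.20. Of the 6 basophil and mast cell markers 4 had a higher mutant mean, and their summed level (log2) was 10.53 to 12.47 in controls and 10.99 to 11.98 in mutants. Of the 10 neutrophil and monocyte markers 6 had a higher mutant mean, with summed levels of 13.42 to 14.07 and 13.33 to 14.20. Without mutant replicate 2, 5 of the basophil and mast cell and 8 of the neutrophil and monocyte markers had a higher mutant mean. The part of these cells in the values of Nfil3 and Il18r1 was not tested.

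Of the 9 T cell markers measured, 5 (Cd3e, Cd3d, Cd3g, Cd8a and Cd8b1) were highest in control replicate 3, while Lat, Cd5, Cd4 and Cd6 were highest on other arrays. Ccl5, Klrd1, Il2rb and Zbtb16 were also highest in control replicate 3, and so were the mature NK cell markers Klrb1c, Klrk1 and Ctsw. The NK markers Ncr1, Klre1 and Nkg7 were highest in control replicate 1, and Gzmb and Prf1 on mutant arrays. The CD3 genes Cd3e, Cd3d and Cd3g were at 6.78, 6.42 and 6.35 in control replicate 3 and at 4.49 to 6.15 on the other 5 arrays. Cd5 had a higher mutant mean, with values of 6.18, 6.18 and 6.29 in controls and 6.61, 6.46 and 6.43 in mutants (0.28 ± 0.11, SE; adjusted p = 0.594 in limma). Of the 9 markers 7 had a lower mutant mean (median of the tested −0.18), and without mutant replicate 2 there were 5 (median −0.03). The summed level was 9.32 to 9.74 in controls and 9.12 to 9.61 in mutants, and Cd8a was below the filter. Of the 8 markers of mature NK cells 5 had a lower mutant mean (median of the tested −0.06), and without mutant replicate 2 there were 4 (median 0.05). The summed level was 8.85 to 9.69 in controls and 8.77 to 9.49 in mutants, and Klrk1, Klre1 and Gzmb were below the filter. The part of T or NK cells in the differences of the 10 genes was not tested. Of the remaining marker lists, with lower mutant means counted, 7 of 7 CLP, 6 of 7 B cell, 4 of 7 plasmacytoid dendritic cell, 1 of 9 erythroid and megakaryocyte and 4 of 8 bone and stroma markers were lower. With cyclic loess 5 of 7 CLP, 7 of 7 B cell and 2 of 7 plasmacytoid dendritic cell markers were lower, and the last 2 counts were unchanged. The CLP median was then −0.02, against −0.18 in the deposited values.

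Of 19 other receptor genes of NK cells 13 had a lower mutant mean, and the median was −0.07 over the 11 that were tested, and 0 passed. Without mutant replicate 2, 11 had a lower mutant mean and the median was −0.04. Slamf7, an activating receptor that B and dendritic cells also carry, was at 9.50, 10.07 and 10.02 in controls and at 9.43, 9.15 and 9.42 in mutants. Its mutant values lay below its control values on every array, and the difference was −0.53 ± 0.18 (SE; adjusted p = 0.594 in limma). Groups without overlap, in either direction, occurred in 14.6% of all genes. Slamf7 is among the highest 10% of genes by level, whose median deviation was −0.41 in mutant replicate 2 and −0.19 in mutant replicate 3. Klrk1, the gene of the activating receptor NKG2D, had the next largest difference (−0.49) but was below the filter and was not tested. The remaining 10 tested genes, among them Ncr1 (−0.19) and Klrb1c (0.11), had unadjusted p over 0.05.

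Cytotoxic granule and effector genes were divided. Of the 18 measured, 10 had a lower and 8 a higher mutant mean, and of 13 tested genes 0 passed and 0 had an unadjusted p under 0.05 (median −0.08, and 0.03 without mutant replicate 2). The lowest p belonged to Tnfsf10, the gene of the death ligand TRAIL (−0.25 ± 0.11, SE), and to Rab27a, which docks lytic granules (−0.35 ± 0.18), both with an adjusted p of 0.594 in limma. Their direction was that of Gzma, whereas Prf1, the perforin gene, stood at 0.21 ± 0.17. The chemokine gene Ccl3 was at 9.39, 6.35 and 7.84 in controls and at 9.39, 6.13 and 7.77 in mutants, a spread over arrays much wider than the group difference of −0.10 ± 0.92 (SE). Its high arrays were replicate 1 of each group, where the basophil and mast cell markers were also highest.

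Innate lymphoid regulators were on both sides of 0. Of the 18 measured 11 had a higher mutant mean, and the median over the 17 tested was 0.09, with 0 passing and 1 at an unadjusted p under 0.05. Ikzf3, an Ikaros family gene also used by B cells, was at 6.39, 7.10 and 7.13 in controls and at 6.33, 5.95 and 6.23 in mutants. Its mutant values were all below the controls, control replicate 1 being close to them, and the difference was −0.70 ± 0.22 (SE; adjusted p = 0.594 in limma). Non-overlap in either direction was found for 14.6% of all genes. Id2, the inhibitor of E proteins on which innate lymphoid cells depend, differed by −0.05 ± 0.26 (adjusted p = 0.948), Gata3 by 0.04 ± 0.12 (adjusted p = 0.911) and Tox by 0.09 ± 0.18 (adjusted p = 0.848).

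Genes of the ILC2 and ILC3 subsets were evenly divided, with 10 of 20 higher and 10 lower and a median of −0.02 over 11 tested, of which 0 had an unadjusted p under 0.05. The lowest p were those of Ahr, the aryl hydrocarbon receptor that maintains ILC3 (0.24 ± 0.11, SE), and of the integrin chain Itgb7 (−0.26 ± 0.14), with adjusted p of 0.594 and 0.596 in limma. In IL-15 signalling 7 of 10 measured genes had a lower mutant mean (median −0.10, and 0.01 without mutant replicate 2). Cish, a STAT5 target that restrains IL-15 responses in NK cells, was at 6.46, 6.37 and 6.14 in controls and at 7.48, 6.69 and 7.06 in mutants. All mutant values exceeded all control values, a difference of 0.75 ± 0.20 (SE; adjusted p = 0.594), in the opposite direction to the receptor gene Il2rb. As above, 14.6% of all genes had groups without overlap.

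In IL-12 and IL-18 signalling 8 of 11 measured genes had a lower mutant mean, and 0 of the 10 tested had an unadjusted p under 0.05. Their median was −0.09, and 0.0093 without mutant replicate 2. Traf6, the ubiquitin ligase downstream of the IL-18 receptor, differed by −0.30 ± 0.15 (SE) and Jak2 by −0.26 ± 0.17, with adjusted p of 0.594 and 0.612 in limma. Il18rap, the second chain of the IL-18 receptor, differed by −0.23 ± 0.28 (adjusted p = 0.746), close to the −0.16 of Il18r1. Of the receptors for CCL5 and XCL1, Xcr1 differed by 0.29 ± 0.15 (adjusted p = 0.594), Ccr1 by −0.10 ± 0.18 (adjusted p = 0.843), and Ccr3 was below the filter.

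**Figure D4:**
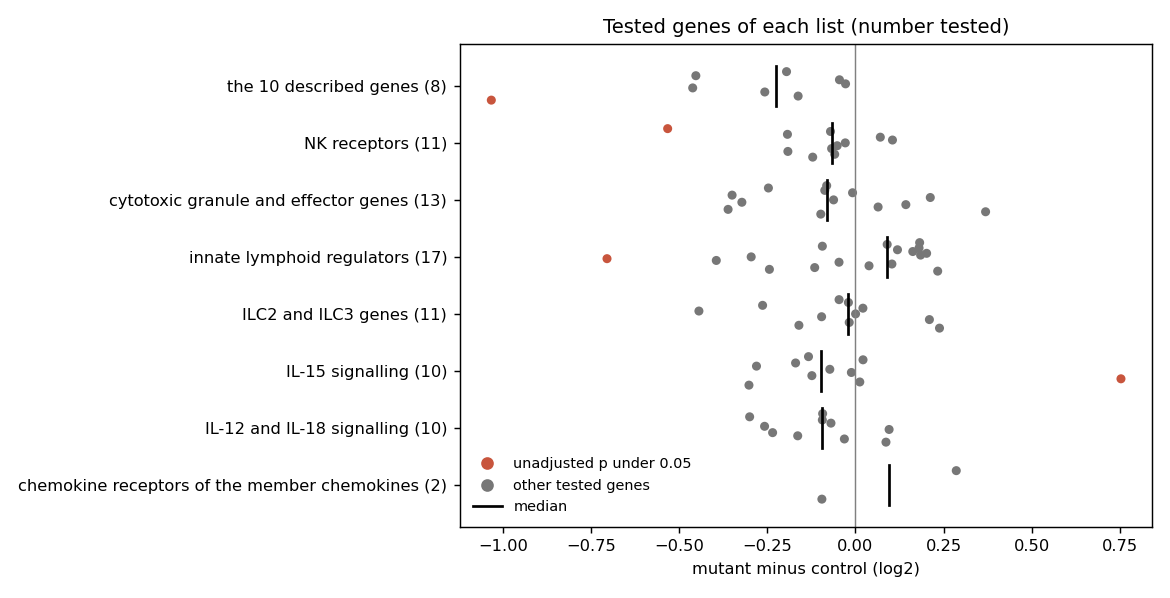
Mutant minus control (log2) of every tested gene in the 10 described genes and in each pathway list, with the list median as a bar; red points have an unadjusted p under 0.05 in limma. The red points are Ccl5, Slamf7 and Ikzf3 on the lower side and Cish on the higher, and the medians run from −0.23 to 0.10.

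Leaving out each array in turn showed which samples carry the differences. The Ccl5 difference kept its sign throughout, from −1.39 to −0.56, as did those of Klrd1 (−0.65 to −0.23), Xcl1 (−0.81 to −0.10), Gzma (−0.50 to −0.21), Zbtb16 (−0.36 to −0.11) and Il2rb (−0.40 to −0.01). The values nearest 0 came without mutant replicate 2 for Ccl5, Klrd1 and Xcl1, without control replicate 1 for Gzma and without control replicate 3 for Zbtb16 and Il2rb. The differences of Nfil3, Tbx21, Il18r1 and Eomes took both signs. Control replicate 2 had the lowest control value for 8 of the 10 genes. Without it the median difference of the 10 genes was −0.39, and without control replicate 3 it was −0.13.

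**Figure D5:**
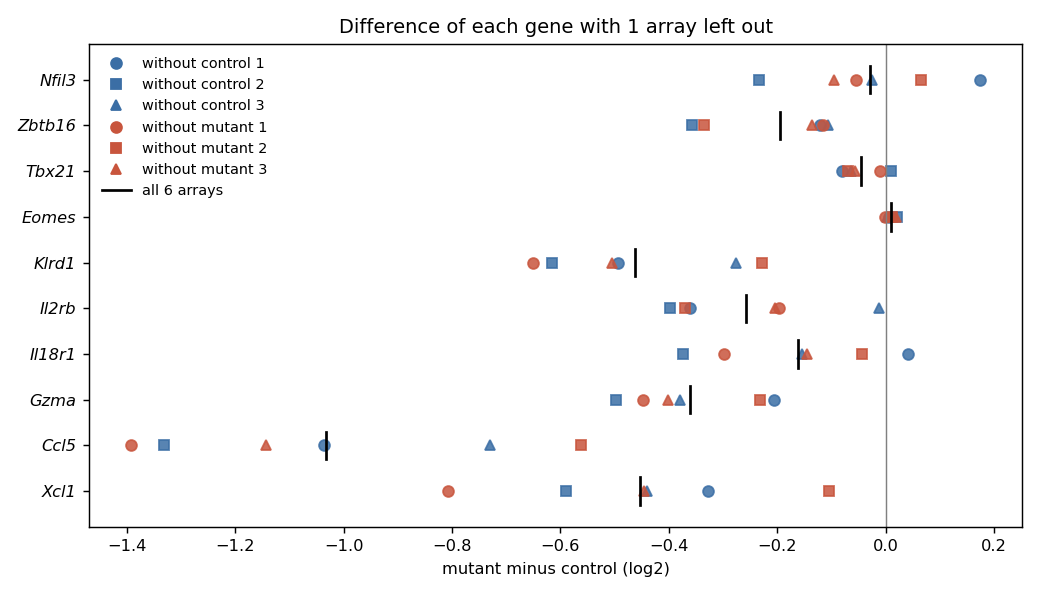
Mutant minus control (log2) of each of the 10 genes with 1 array left out (symbols) and with all 6 arrays (bars). Ccl5 stays between −1.39 and −0.56, and the symbols of Nfil3 lie on both sides of 0.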

How the data were processed

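RNA of sorted CLPs (low for lineage markers, positive for Kit, Sca and CD127, negative for Thy1.2 and Ly6D) was amplified as cDNA with NuGEN Ovation V2 and biotin-labelled, per the labels' protocols. The deposited values are on the log2 scale, and the authors obtained them by RMA according to the submitters' processing notes. RMA evens the arrays' distributions; no version or genome build is given in the sources used here. Of 41345 probe sets, 23521 had 1 gene symbol in the platform annotation, 1814 had several and 16010 had none; 23328 of the first matched a RefSeq gene of GRCm38.p6. For genes with several probe sets the one highest on average across the 6 arrays was used. Levels of different probe sets depend on their probes and were not compared. Genes below the 40th percentile of the mean were not tested. The comparison of mutant and control used limma 3.58.1 (R 4.3.3; lmFit, eBayes, 2-sided, Benjamini-Hochberg over 13308 genes). The test was run on simulated arrays, where 100% of genes changed by 1 were recovered. The simulated noise was independent between genes, which that of real arrays is not. It also had the same SD for every gene, the median of the control SDs, and the changed genes lay clearly above the filter. The recovery therefore does not carry over to genes that vary more between arrays, such as Ccl5. Pathway and marker lists were read by counts and medians. Named from each pathway list were genes with an unadjusted p under 0.05, or else the 2 with the lowest p. Other list genes named with values (Klrk1, Ncr1, Klrb1c, Prf1, Ccl3, Id2, Gata3, Tox, Il18rap, Cd3d, Cd3e, Cd3g, Cd5 and Mcpt8) were chosen after their values were seen. Figures were drawn with matplotlib 3.10.9. The 10 genes and the lists were chosen with earlier results of these data known. Among list genes without a probe set of their own were Tcf7, Il2rg, Jak3 and Rag1. Alternatives were no filter or a stricter one, the mean of probe sets, other normalizations, another variance prior, array weights, the replicate number as a block and leaving out each array.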

Additional observations from a re-analysis of the deposited data

How the results depend on the processing

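Under the 15 alternatives 41 of the summary counts and medians were classed as the same and 11 as moved. For single genes 141 values were classed as the same, 5 of tested genes changed sign, 3 moved and 1 passed an adjusted p of 0.05. Of the 13308 tested genes 0 passed with all 6 arrays (1068 at an unadjusted p under 0.05); array weights gave 2960 and, among the 10 genes, 1 (Ccl5, −0.86, adjusted p = 0.0496), and leaving out 1 array gave 0 to 4. Of the 8 tested genes 4 had an unadjusted p under 0.05 with array weights, 0 with cyclic loess or repeated quantile normalization, and 0 to 3 on leaving out 1 array. Of all 13308 tested genes 5087 had it with array weights, 908 with cyclic loess, 880 with repeated quantile normalization and 343 to 2923 on leaving out 1 array. The number of the 10 genes with a higher mutant mean, 1 in the deposited values, was 0 with repeated quantile normalization, 0 with arrays centred on their medians and 0 with cyclic loess, since Eomes turned to −0.07, −0.05 and −0.08; leaving out 1 array gave 0 to 3. Nfil3 turned to 0.16 with array weights and ran from −0.23 to 0.17 on leaving out 1 array, where Il18r1 ran from −0.37 to 0.041 and Tbx21 from −0.081 to 0.0096. The median difference of the 10 genes lay between −0.39 and −0.13 in the alternatives that could change it. The medians of all lists named in the report kept their sign under the other normalizations, except those of mature NK and plasmacytoid dendritic cell markers (0.05 and 0.02 with cyclic loess, 0.07 and 0.0088 with repeated quantile normalization). That of the CLP markers kept its sign but shrank from −0.18 to −0.02 with cyclic loess. With the replicate block 0 genes passed over all tested genes and Ccl5 had an adjusted p of 0.597 in limma. Of the 8 tested genes 3 had an unadjusted p under 0.05 (Ccl5 0.0018, Klrd1 0.031 and Xcl1 0.042), against 1 without it. Over all tested genes the count was 1062, against 1068 without it. Same-numbered arrays correlated at 0.132, 0.203 and −0.133 in their deviations from the group means, so the numbers were not taken as pairs. Ccl3 and the median of the basophil and mast cell markers nevertheless ran in the same order of replicate numbers in both groups. So did Il18r1, Xcl1, Gzma and the medians of the neutrophil and monocyte and of the erythroid and megakaryocyte markers. Tbx21 also kept its order, which was the reverse. Nfil3, Klrd1, Ccl5 and Eomes shared only the replicate number of their lowest value, and Zbtb16 and Il2rb shared no position. Whether the numbers mark a shared batch was not tested, nor was the cause of the changes under the alternatives. Without detection calls, Eomes and Gzma are limited by their low signal.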
